A study of Mus musculus with 24 samples.

Results

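The 48 cell cycle and DNA replication genes described here were picked by name for their textbook roles, and their rows were read from a table of 54242 gene symbols. They fall into 8 roles: D-type cyclins with their kinases, E-, A- and B-type cyclins with their kinases, CDK inhibitors, E2F factors with the pocket proteins, origin licensing factors with the MCM helicase, DNA synthesis genes, CDC25 phosphatases, and mitotic kinases with the spindle checkpoint. RNA-seq was measured in 24 libraries of CGR8 cells, a mouse embryonic stem cell (ESC) line, with 3 libraries in each of 8 groups. The groups were defined by the siRNA, the rescue and the day, and the question was how the loss of RSL24D1, a factor of the large ribosomal subunit's assembly, changes gene expression in ESCs and on differentiation.

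All cells received an siRNA pool, either non-targeting (si-CTL) or against Rsl24d1 (si-Rsl24d1). Cells with rescue were given doxycycline to induce an integrated Rsl24d1 open reading frame, and are labelled RSL24D1_OE. Cells without rescue got no doxycycline and are labelled empty_vector, so that doxycycline, vector and rescue cannot be told apart. Day 0 cells were kept in serum and LIF, and day 4 cells had been treated with 10 nM retinoic acid (RA) for 4 days. A change under RA stands below for day 4 against day 0. In it RA, the time in culture and, by the methods, the absence of LIF cannot be told apart. The labels and the methods differ in several points, which are listed with the processing. Levels are given as log2(TPM + 1), where TPM is a share of all transcripts corrected for transcript length that holds no library depth.

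The eukaryotic cell cycle is driven by cyclins, which bind and activate cyclin-dependent kinases (CDKs). In G1, D-type cyclins with CDK4 or CDK6 and then cyclin E with CDK2 phosphorylate the pocket proteins RB1, RBL1 and RBL2 and so release E2F transcription factors, whose targets include the genes for origin licensing and DNA synthesis, while CDK inhibitors hold these kinases back. Mouse ESCs are known for rapid division with a short G1 phase, high cyclin E and little active pocket protein.

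The targeted gene was read first. Rsl24d1 was at 7.22, 7.14 and 7.10 in the day 0 si-CTL libraries and at 5.23, 5.28 and 5.07 in those with si-Rsl24d1, a difference of -1.95 ± 0.07 (SE) on the log2(TPM + 1) scale. With rescue, the day 0 means were 7.25 in si-CTL and 6.75 in si-Rsl24d1. The symbol does not separate the endogenous from the induced transcript. At day 4 the 2 siRNA groups without rescue did not differ in it beyond their spread, with means of 6.63 and 6.59 (adjusted p = 0.66, limma). The ESC markers, a list of 10 genes led by Dppa5a, were all above 1 TPM in every group, so that this limit does not separate the days. In day 0 si-CTL without rescue they summed to 5683 to 5834 TPM. The neural progenitor, endoderm and mesenchyme marker lists each summed to at most 101.5 TPM there. Under RA the course of the ESC markers was mixed. In si-CTL without rescue Dppa5a went from 2513 to 2680 TPM at day 0 up to 5299 to 5370 TPM at day 4, while the sum of the other 9 went from 3097 to 3169 TPM down to 1770 to 1889 TPM, and 8 of the 10 fell and 2 rose.

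All 48 genes passed the filter on low values, a level of 0.5 or more in log2(TPM + 1) as the mean of the 24 libraries, as did 16447 genes in all. They are genes of high level, with a median of 6.36 against 3.37 over all genes tested. In the day 0 si-CTL libraries without rescue, Cdk4 was the highest, at 593 ± 8.25 TPM (SD, n = 3), followed by Pcna at 435 ± 27.1 and Top2a at 408 ± 30.6, which did not lie apart beyond their SDs. Cdkn2c, an inhibitor of CDK4 and CDK6, was the lowest at 0.369 ± 0.0411 TPM. Genes were called with limma at an adjusted p below 0.01 (Benjamini-Hochberg over all genes tested, two-sided), and "rose" and "fell" are used of those only. Since all values come from bulk samples, fewer cells of a type and less RNA per cell cannot be told apart.

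**Figure D1:**
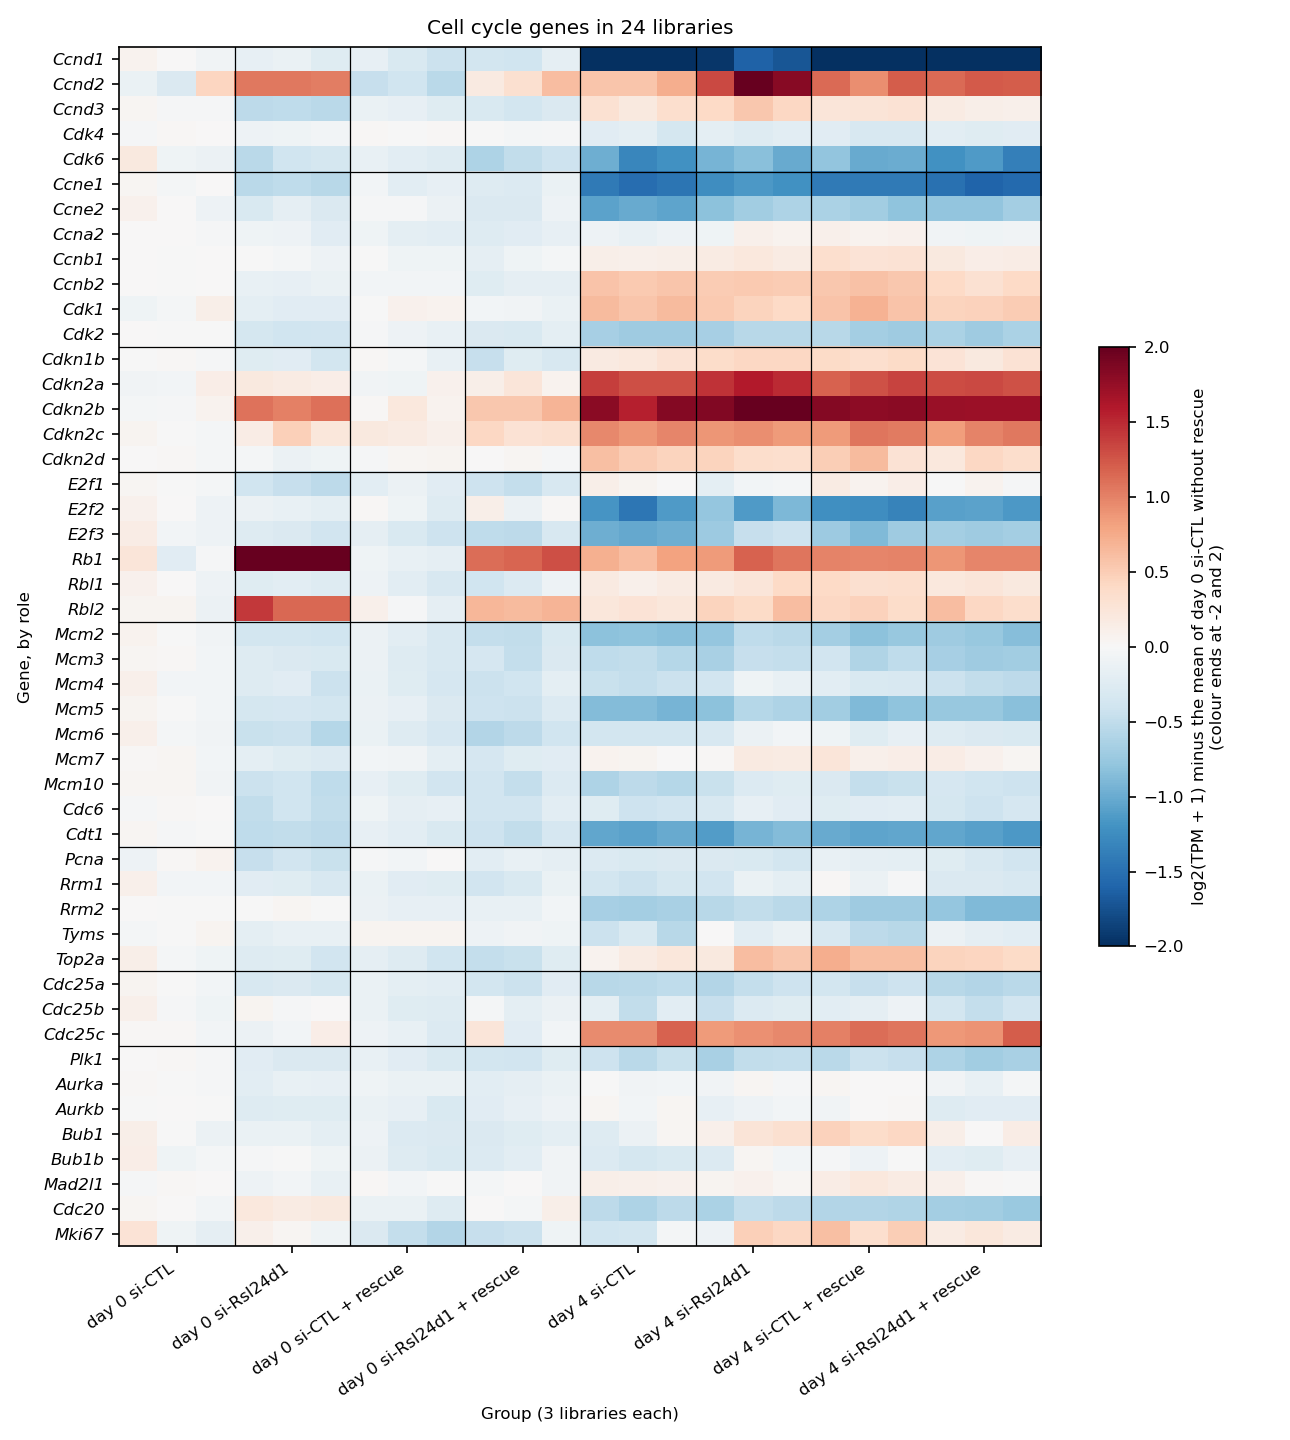
Each row is 1 of the 48 genes, ordered by role, and each column 1 of the 24 libraries, in 8 groups of 3. The colour is the log2(TPM + 1) minus the mean of the day 0 si-CTL libraries without rescue, so that the dark red Rb1 cells of si-Rsl24d1 at day 0 stand for a rise of 2.04 and the dark blue Ccnd1 cells at day 4 for a fall by 2.40 in si-CTL.

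At day 0 without rescue, si-Rsl24d1 changed 31 of the 48 genes, of which 25 fell and 6 rose. Over all genes tested 16.1% fell and 14.3% rose, and the median change of the 48 was -0.23 against -0.01. Since these genes are highly expressed, the share was also read, by a limit chosen after the values were seen, among the 6641 genes with a mean of at least 4, which hold 37 of the 48, and 25.6% of those fell, against 62.2% of the 37. Markers of the ESC state moved in the same comparison: 8 of the 10 fell and 0 rose, and their summed level was at 5683 to 5834 TPM in si-CTL and at 4674 to 4697 TPM in si-Rsl24d1. The 8 fibroblast or mesenchyme markers, led by Acta2, summed to 66.4 to 79.9 TPM against 54.0 to 56.8 TPM, with 3 that fell and 1 that rose, and the part of either shift in the changes of the 48 was not tested. The rises were large and few, and the falls small and many: 4 of the 48 changed by over 1.8-fold (4.18% of all genes tested), and all 4 rose, while the largest fall was that of the cyclin Ccne1, by 0.53.

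The 4 large rises were in genes that restrain the passage through G1 or, in 1 case, drive it. Rb1, which encodes the retinoblastoma protein, was at 3.16, 2.69 and 2.88 in si-CTL and at 5.05, 4.90 and 4.91 in si-Rsl24d1. The groups lie far apart, and the difference of 2.04 ± 0.09 (SE, adjusted p = 1.2e-12, limma) is a 4.12-fold rise of TPM + 1. Rbl2, the gene for the pocket protein p130 found with E2F4 in resting cells, was at 2.63, 2.62 and 2.45 against 3.98, 3.72 and 3.72, and rose by 1.24 ± 0.09 (adjusted p = 8.6e-10). Rbl1, the third pocket protein gene, did not pass the test, at -0.24 ± 0.07 (adjusted p = 0.014), so its value lay on the other side of 0 from Rb1 and Rbl2.

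Cdkn2b, which encodes the CDK4 and CDK6 inhibitor p15, was at 2.39, 2.40 and 2.50 in si-CTL and at 3.50, 3.43 and 3.53 in si-Rsl24d1, a rise of 1.06 ± 0.07 (adjusted p = 3e-10). Ccnd2, a D-type cyclin, was at 2.38, 2.24 and 2.95 against 3.57, 3.58 and 3.54, and rose by 1.04 ± 0.16 (adjusted p = 3.2e-05). The si-CTL libraries of Ccnd2 were spread more widely than those of the other 3 genes, but none reached the si-Rsl24d1 range. In Cdkn2c the rise was of 0.29 ± 0.08 from a level of 0.45. It passed in only 3 of the 12 alternative fits, those with 1 library left out included. Cdc20, the activator of the anaphase-promoting complex, rose by 0.19 ± 0.05.

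Rb1 shares its locus with another gene that moved alongside it. In the GENCODE annotation Rb1 lies on the minus strand (GRCm38, chr14:73183673-73325822), and Lpar6, a lysophosphatidic acid receptor gene on the opposite strand, lies wholly within it, with 408 of its 5400 exonic bases inside Rb1 exons. Lpar6 was at 2.20, 2.17 and 2.08 in si-CTL and at 4.14, 4.05 and 4.14 in si-Rsl24d1, 1.96 ± 0.07 higher. Whether the counting used strand is not given in the sources used here, and the part of shared reads in the Rb1 value was not tested. Of the 48 genes, 22 overlap another annotated gene and 12 a protein-coding gene on the opposite strand.

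**Figure D2:**
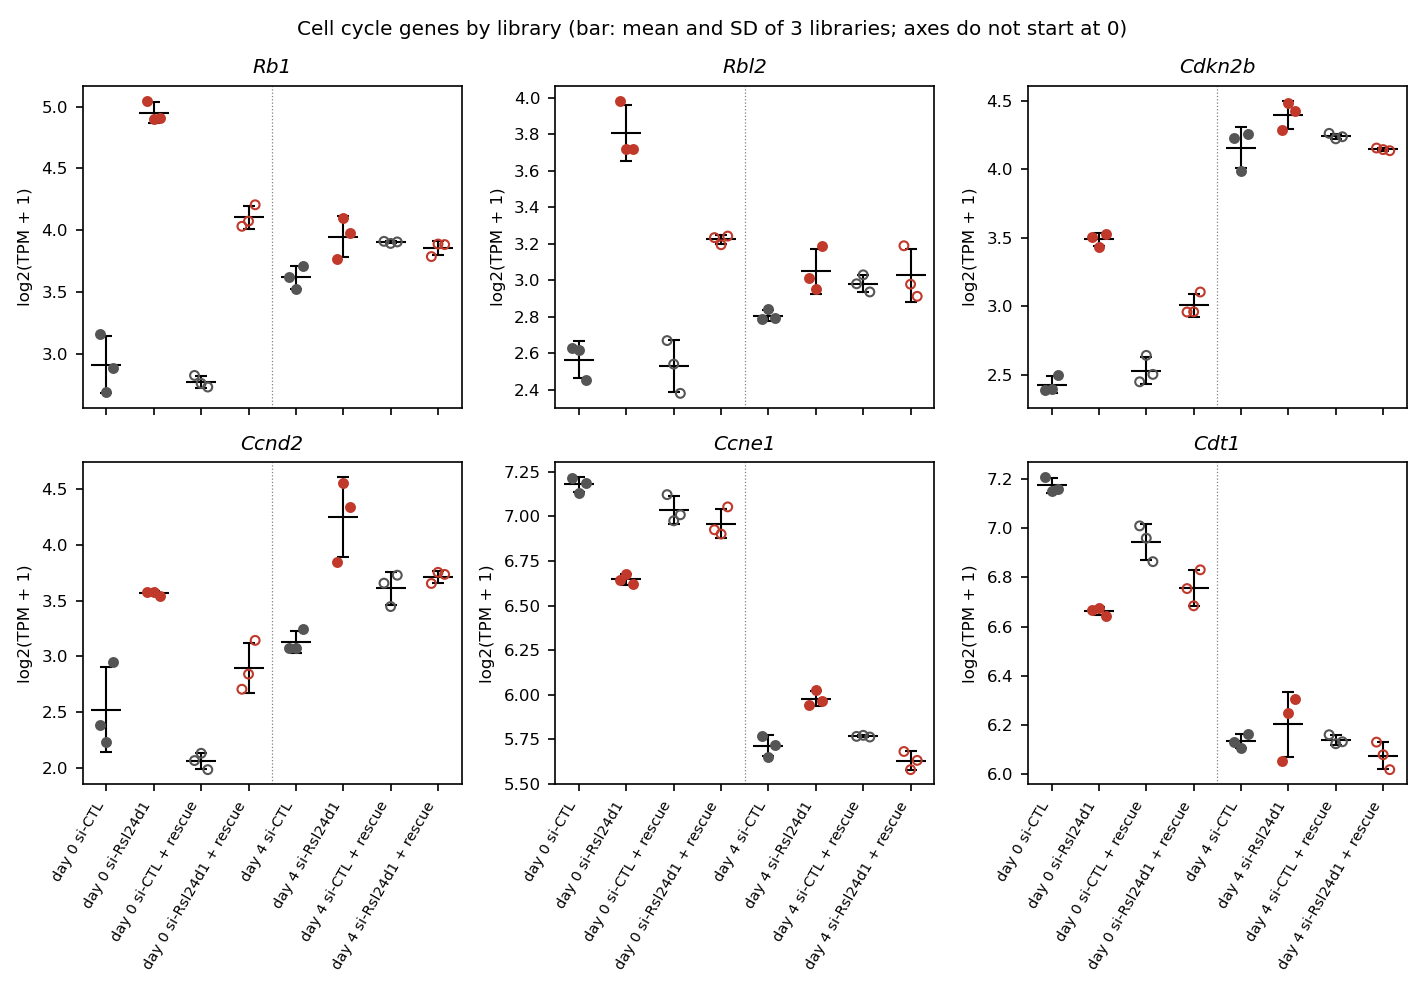
Levels of Rb1, Rbl2, Cdkn2b, Ccnd2, Ccne1 and Cdt1 in log2(TPM + 1) in the 24 libraries, with si-CTL in grey and si-Rsl24d1 in red, filled without and open with rescue, and the mean and SD of 3 libraries as bars (vertical axes do not start at 0). Rb1, Rbl2, Cdkn2b and Ccnd2 were higher with si-Rsl24d1 at day 0 with no overlap, Ccne1 and Cdt1 were lower at day 0 without rescue, and the siRNA groups lie closer at day 4 for Rb1, Rbl2 and Cdkn2b.

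In the other direction, origin licensing was the role in which every gene fell at day 0. MCM2 to MCM7 form the helicase ring loaded on origins in G1 with the help of CDC6 and CDT1, and MCM10 acts when origins fire. All 9 genes of the role fell, by 0.24 (Mcm7) to 0.51 (Cdt1), with a median of -0.37. Cdt1 was at 7.21, 7.15 and 7.16 in si-CTL and at 6.67, 6.68 and 6.64 in si-Rsl24d1 (adjusted p = 1.5e-07). Mcm6 was at 7.56, 7.41 and 7.38 against 7.01, 7.02 and 6.87, and fell by 0.48 ± 0.07 (adjusted p = 1.2e-05). Mcm7, at the other end of the role, was at 7.94, 7.96 and 7.87 against 7.73, 7.68 and 7.64, so that even the smallest of these falls left no overlap between the groups.

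Promoters of the licensing genes often held matches of the E2F site, and 3 of them are shown for that reason. RefSeq promoters of GRCm38.p6, 250 bases before to 50 after the start, were found for 40 of the 48 genes and not for Ccnd1, Ccnd2, Ccne2, Ccna2, Rb1, Mcm4, Cdc25c and Aurkb. The E2F site was searched as TTTGGCGC, TTTCCCGC, TTTGCCGC or TTTCGCGC, the CHR element of G2 and mitotic genes as TTTGAA, and the CCAAT box as CCAAT, on both strands, with overlapping matches counted each. An E2F match was in 13 of the 40 genes (32.5%) against 2.6% of the 27025 genes of the table, and in 6 of the 8 licensing genes with a promoter. In the lines below capitals mark any match of the 3 motifs. For Mcm6 (chr1:128359656-128359955, minus strand), Mcm5 (chr8:75109259-75109558, plus strand) and Cdt1 (chr8:122567765-122568064, plus strand) the promoters hold 3, 2 and 1 E2F matches.
Mcm6: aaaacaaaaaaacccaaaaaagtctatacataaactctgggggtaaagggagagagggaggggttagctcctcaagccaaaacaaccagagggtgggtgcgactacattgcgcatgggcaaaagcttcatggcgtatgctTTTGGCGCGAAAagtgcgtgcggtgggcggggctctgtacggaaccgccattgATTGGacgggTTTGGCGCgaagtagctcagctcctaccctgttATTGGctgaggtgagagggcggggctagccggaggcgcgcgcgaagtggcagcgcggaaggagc
Mcm5: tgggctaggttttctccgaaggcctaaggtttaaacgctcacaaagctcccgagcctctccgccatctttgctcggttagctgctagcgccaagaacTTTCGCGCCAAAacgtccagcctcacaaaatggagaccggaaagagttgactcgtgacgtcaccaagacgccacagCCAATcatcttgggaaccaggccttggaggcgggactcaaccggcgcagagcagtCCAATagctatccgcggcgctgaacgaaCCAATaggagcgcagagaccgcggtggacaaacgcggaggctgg
Cdt1: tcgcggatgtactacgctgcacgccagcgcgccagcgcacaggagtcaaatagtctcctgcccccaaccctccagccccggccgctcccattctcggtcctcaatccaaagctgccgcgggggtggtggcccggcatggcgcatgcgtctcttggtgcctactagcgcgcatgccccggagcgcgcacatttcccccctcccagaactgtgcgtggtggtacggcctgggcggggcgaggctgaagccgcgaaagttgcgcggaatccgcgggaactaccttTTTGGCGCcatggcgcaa

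For contrast, Ccnb2, a B-type cyclin gene, and Mki67, the gene for the proliferation antigen Ki-67, had no E2F match, 2 CHR matches and 3 CCAAT boxes each (chr9:70421505-70421804 and chr7:135716330-135716629, both on the minus strand). CHR was matched in 13 of the 40 genes (32.5%) against 20.2% of all genes in the table, and in 5 of 7 mitotic genes, and CCAAT in 29 of the 40 (72.5%) against 41.1%. The risen genes Rbl2 (chr8:91069807-91070106, plus strand) and Cdkn2b (chr4:89310983-89311282, minus strand) are given as the counterpart, with 1 CHR match and no E2F match each. Of the genes with a promoter, 10 of the 22 that fell held an E2F match, 0 of the 4 that rose, and 3 of the 14 not past the test. A match here is a run of letters and no sign of binding.
Ccnb2: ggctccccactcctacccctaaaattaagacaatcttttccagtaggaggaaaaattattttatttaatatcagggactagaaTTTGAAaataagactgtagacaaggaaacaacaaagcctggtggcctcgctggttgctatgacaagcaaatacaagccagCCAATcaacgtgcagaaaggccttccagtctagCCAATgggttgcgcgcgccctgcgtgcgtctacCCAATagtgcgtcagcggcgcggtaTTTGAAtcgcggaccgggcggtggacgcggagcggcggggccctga
Mki67: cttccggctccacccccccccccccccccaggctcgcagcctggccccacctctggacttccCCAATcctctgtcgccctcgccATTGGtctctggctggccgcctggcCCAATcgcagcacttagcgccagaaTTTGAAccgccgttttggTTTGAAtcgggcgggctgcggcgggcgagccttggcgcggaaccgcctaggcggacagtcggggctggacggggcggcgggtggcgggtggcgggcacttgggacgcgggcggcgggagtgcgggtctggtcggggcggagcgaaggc
Rbl2: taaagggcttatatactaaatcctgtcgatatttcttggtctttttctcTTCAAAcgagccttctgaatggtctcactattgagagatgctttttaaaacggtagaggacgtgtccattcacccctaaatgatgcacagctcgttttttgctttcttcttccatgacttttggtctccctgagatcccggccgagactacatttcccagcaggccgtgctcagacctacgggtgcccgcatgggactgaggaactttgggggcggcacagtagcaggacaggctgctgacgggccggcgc
Cdkn2b: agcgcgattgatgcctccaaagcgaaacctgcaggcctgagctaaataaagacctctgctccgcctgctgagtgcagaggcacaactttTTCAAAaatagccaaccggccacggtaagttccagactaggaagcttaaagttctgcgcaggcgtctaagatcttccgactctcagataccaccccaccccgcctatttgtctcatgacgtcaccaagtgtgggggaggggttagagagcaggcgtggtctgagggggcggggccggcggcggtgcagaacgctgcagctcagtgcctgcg

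Among the G1 cyclins and kinases, Ccne1 was at 7.22, 7.13 and 7.19 in si-CTL and at 6.64, 6.68 and 6.62 in si-Rsl24d1, and fell by 0.53 ± 0.05 (adjusted p = 9.7e-09). Ccnd3 fell by 0.53 as well, from 6.78, 6.72 and 6.72 to 6.21, 6.23 and 6.20, so that 2 D-type cyclins moved in opposite directions. The third, Ccnd1, was at 5.88 against 6.06 and did not pass the test (adjusted p = 0.073). Of the kinases, Cdk6 fell by 0.43, Cdk2, the partner of cyclins E and A, by 0.38 and Cdk1, the mitotic kinase, by 0.22, while Cdk4 was at 9.13 against 9.21 (adjusted p = 0.064). Ccne2 and Ccnb2 fell by 0.26 and 0.15, and Ccna2 and Ccnb1 did not pass, at -0.14 and -0.05.

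Of the E2F genes, E2f1 fell by 0.46 ± 0.05 (4.56, 4.51 and 4.47 against 4.11, 4.05 and 3.99) and E2f3 by 0.31, and E2f2 did not pass at -0.15. The CDK inhibitors moved apart. Beside the rise of Cdkn2b and the unstable one of Cdkn2c, Cdkn1b, which encodes p27, fell by 0.28 ± 0.05. Cdkn2a and Cdkn2d were at 0.16 and -0.08 without passing. Cdkn1a, the p21 gene and no member of the 48, rose from 5.48 to 6.66. Among DNA synthesis genes, Pcna, the sliding clamp, fell by 0.42 ± 0.04 (8.67, 8.79 and 8.84 against 8.31, 8.39 and 8.33) and Rrm1, a ribonucleotide reductase subunit, by 0.26. Its partner Rrm2 was at 7.80 in both groups, and Tyms and Top2a, the thymidylate synthase and topoisomerase genes, did not pass at -0.16 and -0.29.

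Mitotic genes moved little. Plk1, Aurkb and Aurka, 3 mitotic kinases, fell by 0.27, 0.24 and 0.17, and of the other 5 genes of the role, Cdc20 rose and 4 did not pass. Mki67 was at 5.32, 4.97 and 4.87 in si-CTL and at 5.16, 5.09 and 4.97 in si-Rsl24d1, with overlapping groups and a difference of 0.02 ± 0.15. Of the CDC25 phosphatases, which activate CDKs, Cdc25a fell by 0.32, while Cdc25b and Cdc25c lay at 0.01 and -0.01.

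Other genes of these pathways, from 3 lists that leave out the 48, are set beside them and beside the 16.1% of all genes tested that fell and the 14.3% that rose. Of 47 replication fork and initiation factors, 28 fell (59.6%) and 2 rose (4.26%), and the histone chaperone subunit gene Chaf1b (by 0.59) and the maintenance methylation factor gene Uhrf1 (by 0.58) fell most. The 2 that rose were Pold4, a DNA polymerase delta subunit (0.43), and Orc4, an origin recognition subunit (0.37). Of 48 mitosis factors 10 fell (20.8%), a share near that of all genes, led by the transcription factor gene Mybl2 at -0.89 ± 0.07, and 4 rose (8.33%). Among 28 tested G1 and G1/S regulators 12 rose (42.9%) and 5 fell (17.9%): the antiproliferative gene Btg2 rose by 1.92 ± 0.04, Gadd45g by 1.70 and Fbxw7, the substrate receptor of the ubiquitin ligase that degrades cyclin E, by 1.51, while the checkpoint kinase gene Chek1 fell by 0.51.

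With rescue, si-Rsl24d1 changed 10 of the 48 genes at day 0 against si-CTL with rescue, 5 in each direction, where 8.10% of all genes tested rose and 5.64% fell. The number that fell was not stable. It was 2 without si-CTL library 1 or 2 or si-Rsl24d1 library 1 or 2, and 8 without library 3 of either group, while 4 or 5 rose. Under another scaling between libraries, the median of ratios, 5 rose and 15 fell, and a fit of only the 2 groups compared gave 3 that rose and 0 that fell. The ESC markers summed to 5889 to 6127 TPM in si-CTL and 5103 to 5496 TPM in si-Rsl24d1 here, and their part was not tested. Rb1 still rose, from 2.82, 2.76 and 2.73 to 4.03, 4.07 and 4.21, by 1.33 ± 0.09, and was alone among the 48 in passing 1.8-fold (1.36% of all genes tested). Ccnd2 rose by 0.84 ± 0.16, Rbl2 by 0.69 ± 0.09 and Cdkn2b by 0.48 ± 0.07, each with no overlap between the groups, and Cdc20 by 0.20. The 5 that fell were Cdkn1b (by 0.29), E2f1 (0.22), Cdk2 (0.17), Pcna (0.16) and Ccnb2 (0.14), and none of the 9 licensing genes passed, with changes of -0.10 to -0.26.

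The 2 day 0 comparisons share no library, so their changes can be set side by side. For the 31 genes that changed without rescue, the change with rescue was a median 49.0% of that without, it kept its sign in 30 and was smaller in 29. Over all 5008 genes that passed without rescue the median was 55.5%. By direction it was 65.5% for the 6 genes that rose and 47.4% for the 25 that fell, against 61.4% and 49.9% for all genes, so that these genes lay near the level of all genes. Ccne1 kept 14.2% of its fall and Ccnd3 26.9%, while Ccnd2 kept 80.1% of its rise, Ccnb2 93.8% of its fall and Cdkn1b 103.5%. The genes in these shares were chosen by the comparison without rescue. Each share also depends on the level of si-CTL with rescue. As deposited, the licensing role averaged 7.21 in si-CTL and 6.83 in si-Rsl24d1 without rescue, and 7.01 and 6.84 with it. On that scale the smaller fall of the role came mainly with a lower si-CTL level. From cells without to cells with rescue, the median change of the genes described here was -0.175 in si-CTL and -0.0233 in si-Rsl24d1. After the median of ratios scaling these medians were -0.0243 and 0.11, so that the balance may depend on the scaling. Whether the role's share left measures a recovery of si-Rsl24d1 cells was not tested.

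The difference of the 2 siRNA effects was tested as an interaction, and 6 of the 48 passed, 4 towards higher (0.906% of all genes tested) and 2 towards lower values (1.18%). The effect on Ccne1 was 0.46 ± 0.06 higher with rescue, on Ccnd3 0.39, on Aurkb 0.28 and on Pcna 0.27, so that the falls seen without rescue were smaller, or in Aurkb not seen, with it. The rises of Rb1 and Cdkn2b were smaller by -0.71 ± 0.13 and -0.59 ± 0.10. Without the day 0 si-Rsl24d1 library 1 without rescue, 3 passed. Of 19 alternative fits, those with 1 library left out included, Ccne1 and Ccnd3 passed in all 19. Cdkn2b passed in 18 and Rb1 in 15, but Aurkb in only 6 and Pcna in only 4. For Rbl2 the difference of -0.55 ± 0.13 missed the threshold (adjusted p = 0.014), as did those of Ccnd2 (-0.21 ± 0.23) and the 9 licensing genes, at 0.08 to 0.33.

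**Figure D3:**
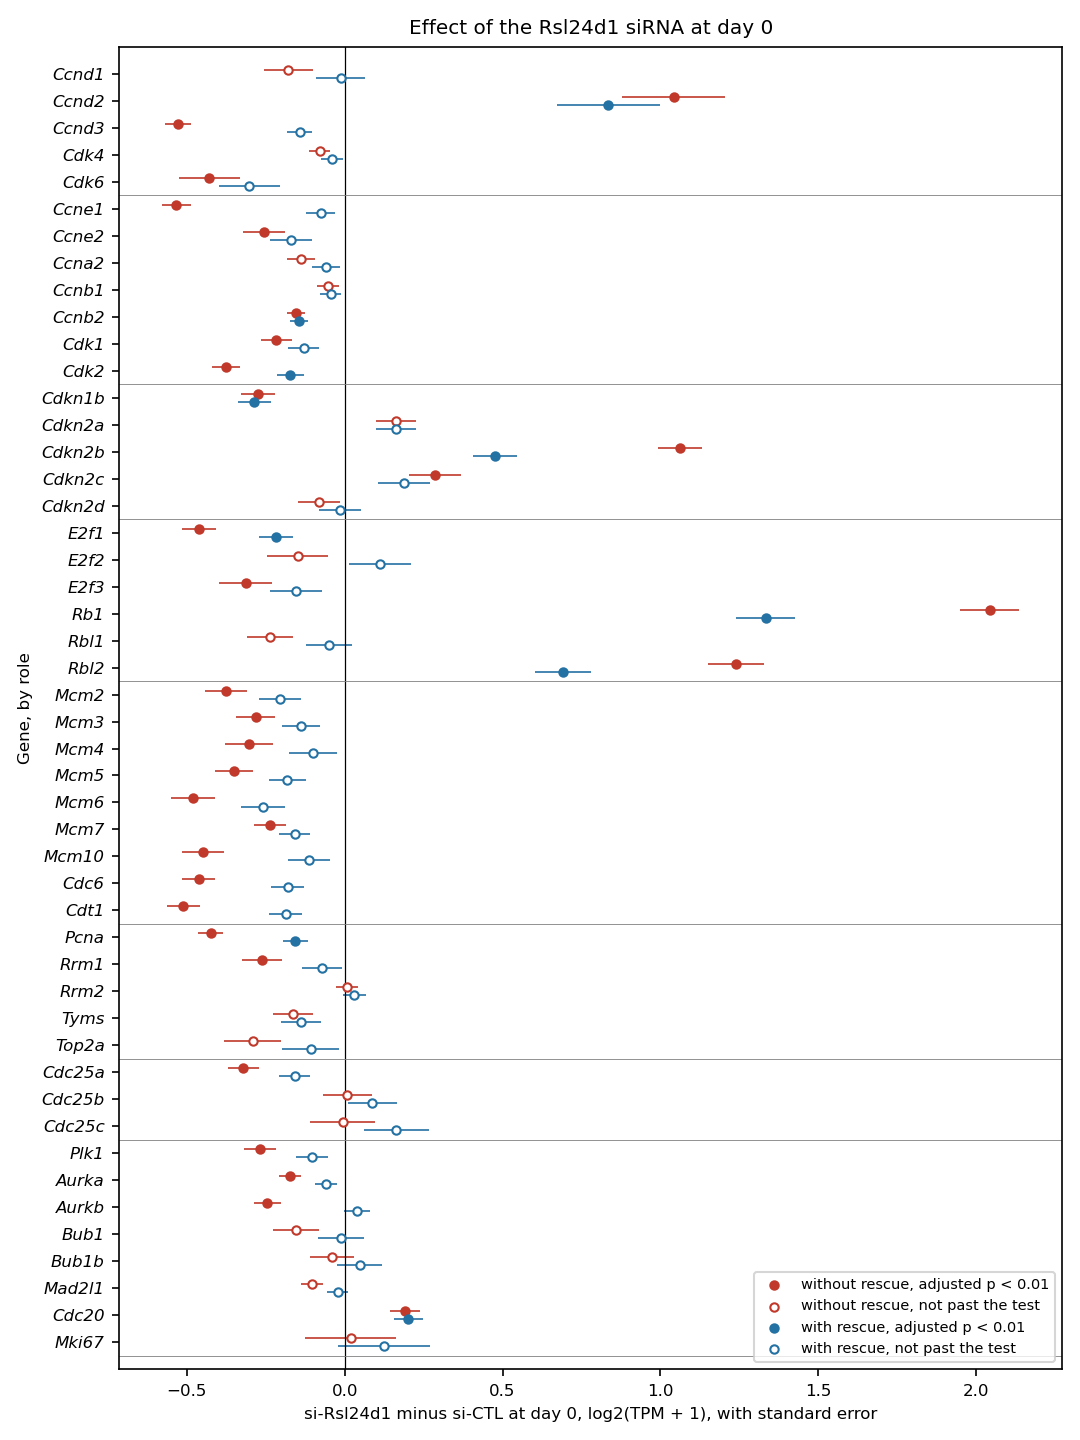
The si-Rsl24d1 minus si-CTL difference at day 0 in log2(TPM + 1), with its standard error, for the 48 genes by role, in red without and in blue with rescue; filled points passed an adjusted p of 0.01. The 9 licensing genes lie between -0.51 and -0.24 without rescue and between -0.26 and -0.10 with it, and Rb1 lies at 2.04 and 1.33.

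Between rescued and unrescued cells with si-Rsl24d1 at day 0, 7 genes changed. Rb1 fell by 0.85 ± 0.09, Ccnd2 by 0.67 ± 0.16, Rbl2 by 0.58 ± 0.09 and Cdkn2b by 0.48 ± 0.07 with the rescue, and Ccne1, Pcna and Ccnd3 rose by 0.31, 0.25 and 0.21. Over all genes 12.2% fell and 3.06% rose, with a median shift of -0.11, and after the median of ratios scaling 12 of the 48 rose and 3 fell. Relative to that shift the rises are the larger group, and the fall of Ccnd2 no longer passed, at -0.55. In si-CTL cells, the rescue changed none of the 48 by limma at an adjusted p below 0.01, where 0% of all genes rose and 0.0122% fell. At an unadjusted p below 0.05, 30 of the 48 were lower and 0 higher, and the median of all genes was shifted by -0.12 in the same comparison.

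Under RA in si-CTL cells without rescue, 37 of the 48 genes changed from day 0 to day 4, of which 25 fell and 12 rose. Of all genes 36.7% fell and 24.1% rose, with a median of -0.10 against -0.28 for the 48. Among the genes with a mean of at least 4, 49.8% fell and the median was -0.20, so that the 56.8% of the 37 genes of that level, with a median of -0.32, lay near the share of similarly expressed genes. After the median of ratios scaling, which takes that shift out, the 48 split into 22 that fell and 19 that rose. Of the 48, 12 changed by over 1.8-fold, 8 down and 4 up (15.0% of all genes tested). The 8 were G1 cyclins and kinases, E2F genes and licensing genes, and 3 of the 4 that rose were CDK inhibitors. Beside these changes the summed level of the mesenchyme markers went from 66.4 to 79.9 TPM at day 0 to 407 to 430 TPM at day 4, and no marker of the list was at 0. The summed levels of 8 endoderm markers went from 30.7 to 36.6 TPM up to 55.4 to 65.4 TPM, and those of 8 neural progenitor markers, led by Tubb3, from 93.6 to 101.5 TPM down to 37.4 to 37.9 TPM. The part of these cell types in the changes was not tested.

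Ccnd1, the D-type cyclin next to Ccnd3 in level at day 0, was at 6.13, 6.07 and 5.99 and went to 3.66, 3.67 and 3.66, a fall by 2.40 ± 0.08 (adjusted p = 1.7e-15, limma). Ccnd2 went the other way, from the values above to 3.07, 3.08 and 3.24 (0.61 ± 0.16), and Ccnd3 rose by 0.28. The order of the D-type cyclins at day 0, Ccnd3 over Ccnd1 over Ccnd2, stood at day 4 as well, with Ccnd1 at 3.66 and Ccnd2 at 3.13. Cdk6 fell by 1.16 ± 0.10 from 4.76, 4.48 and 4.44 to 3.59, 3.25 and 3.35, and Cdk4 by 0.26.

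Ccne1 fell by 1.47 ± 0.05, to 5.77, 5.65 and 5.72, and Ccne2 by 1.05 ± 0.07, from 4.52, 4.45 and 4.33 to 3.37, 3.42 and 3.37. Their kinase Cdk2 fell by 0.69. The mitotic partners rose, Cdk1 by 0.61 ± 0.05, Ccnb2 by 0.55 ± 0.03 and Ccnb1 by 0.11, so that within 1 role the E-type and the B-type cyclins went in opposite directions. All 5 CDK inhibitors rose. Cdkn2b went to 4.22, 3.98 and 4.26, by 1.73 ± 0.07, Cdkn2a, which encodes p16 and p19ARF, from 3.37, 3.38 and 3.57 to 4.83, 4.74 and 4.73, by 1.33 ± 0.06, and Cdkn2c from 0.50, 0.44 and 0.42 to 1.41, 1.34 and 1.43, by 0.94 ± 0.08. In none of these 3 did the days overlap, and Cdkn2d and Cdkn1b rose by 0.52 and 0.22.

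E2f2 fell by 1.25 ± 0.10, from 2.58, 2.52 and 2.40 to 1.32, 1.05 and 1.37, and E2f3 by 0.99 ± 0.08, from 4.66, 4.46 and 4.41 to 3.54, 3.49 and 3.53, whereas E2f1 was at 4.51 and 4.57 (adjusted p = 0.35). Rb1 rose by 0.71 ± 0.09 to 3.62, 3.52 and 3.71. In the licensing role 8 of 9 fell, Cdt1 by 1.04 ± 0.05 to 6.13, 6.11 and 6.16 and Mcm5 by 0.89 ± 0.06, from 8.45, 8.39 and 8.35 to 7.54, 7.53 and 7.47. Mcm7, the gene outside that fall, was at 7.96 against 7.92. Of the mitotic role, Cdc20 fell by 0.55, Plk1 by 0.46 and Bub1b by 0.31, and the other 5 did not pass. Cdc25c, the phosphatase acting at mitotic entry, rose by 1.02 ± 0.10, from 4.22, 4.22 and 4.15 to 5.14, 5.13 and 5.37, while Cdc25a and Cdc25b fell by 0.53 and 0.30.

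In si-Rsl24d1 cells without rescue, RA changed 40 of the 48, with 22 that rose and 18 that fell (29.4% and 26.4% of all genes), and a median of 0.12 against 0.02 over all genes. At a mean of at least 4, 45.9% of the 37 genes rose and 32.4% fell, against 28.9% and 33.0% of all genes. Of the 40, 6 passed 1.8-fold (14.1% of all genes tested): Ccnd1 fell by 1.58 and Rb1 by 1.01, and Cdkn2a, Ccnd3, Cdc25c and Cdkn2b rose by 1.34, 0.98, 0.92 and 0.91. Rb1 went from the raised day 0 level to 3.77, 4.10 and 3.98 at day 4, and Ccnd3 from 6.21, 6.23 and 6.20 to 7.14, 7.28 and 7.16. In the licensing role 4 of 9 genes fell and 3 rose. Of the 10 ESC markers 5 rose and 3 fell here, against 2 and 8 in si-CTL. The summed mesenchyme markers went from 54.0 to 56.8 TPM at day 0 up to 843 to 997 TPM at day 4. The part of these cell types in the changes was not tested.

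**Figure D4:**
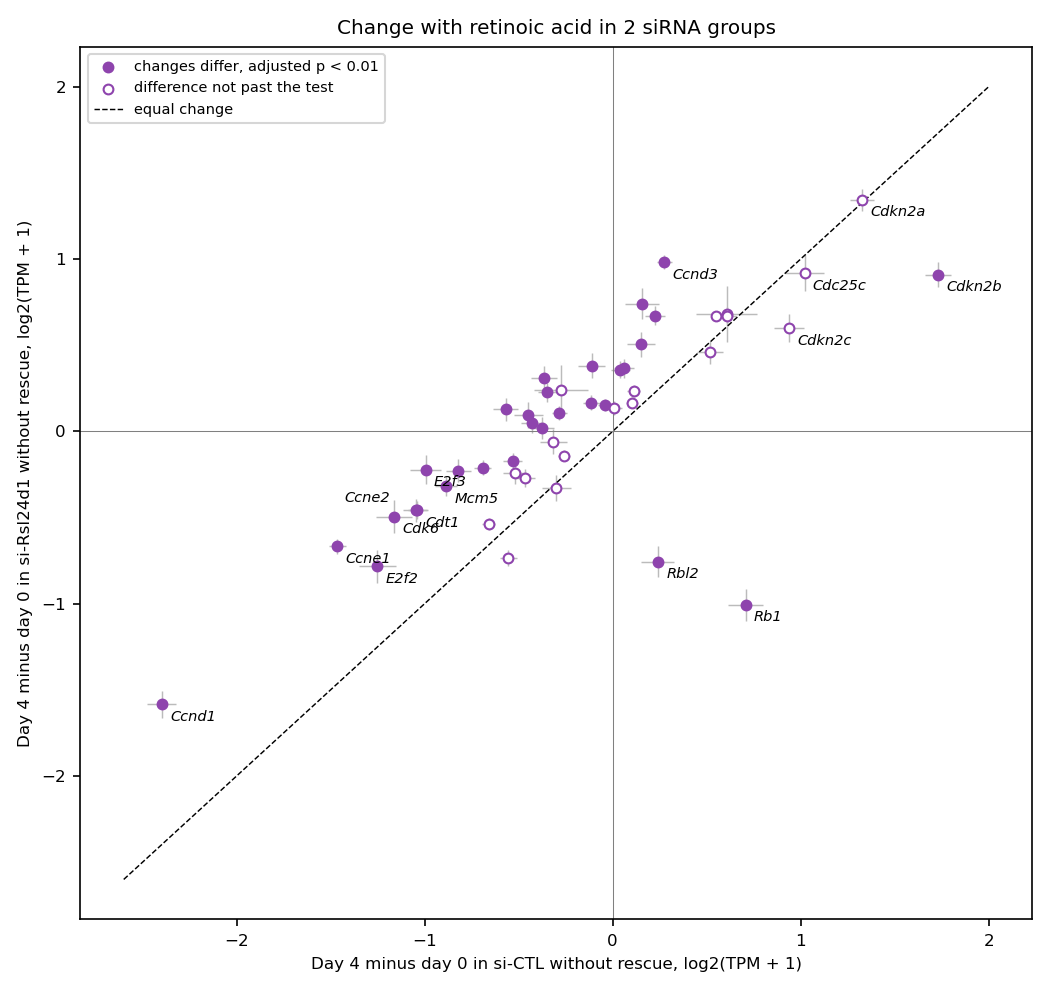
Day 4 minus day 0 in log2(TPM + 1) for the 48 genes, in si-CTL (horizontal) and si-Rsl24d1 (vertical) cells without rescue, with standard errors; filled points differ between the axes at an adjusted p of 0.01, and the dashed line marks equal change. Rb1 lies at 0.71 and -1.01 and Rbl2 at 0.24 and -0.76, below the line, and most genes with falls in si-CTL lie above it.

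The interaction of siRNA and day, the test of that difference, passed for 30 of the 48, with 27 higher and 3 lower (22.1% and 8.83% of all genes), and a median of 0.34 against 0.14. Among genes with a mean of at least 4, 32.0% were higher with a median of 0.18, against 62.2% and 0.39 for the 37 genes of that level. Of the ESC markers 8 of 10 were higher as well, and of the mesenchyme markers 7 of 8, and their part was not tested. After the median of ratios scaling it was 19 higher and 5 lower. The 3 lower ones were Rb1 (-1.71 ± 0.13), Rbl2 (-1.0 ± 0.13) and Cdkn2b (-0.82 ± 0.10), which had risen with the siRNA at day 0. The largest among the higher were Ccnd1 (0.82 ± 0.11), Ccne1 (0.80 ± 0.06), E2f3 (0.77 ± 0.12) and Ccnd3 (0.71 ± 0.06), and 8 of the 9 licensing genes were in the group, at 0.32 (Mcm7) to 0.69 (Mcm10). The difference is the siRNA effect at day 4 minus that at day 0, so that it holds the day 0 effect by construction.

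With rescue, RA changed 41 of the 48 in si-CTL, with 23 that rose and 18 that fell (36.8% and 22.4% of all genes, with a median shift of 0.12), and 10 passed 1.8-fold (15.6%). In si-Rsl24d1 with rescue it changed 36, of which 19 rose and 17 fell (32.4% and 25.8%), and 6 passed 1.8-fold (14.9%). After the median of ratios scaling these were 20 and 21 in si-CTL, and 17 and 23 in si-Rsl24d1. Of the 10 ESC markers 2 rose and 7 fell in si-CTL, and 4 rose and 4 fell in si-Rsl24d1. The summed mesenchyme markers went from 52.7 to 67.2 TPM up to 453 to 491 TPM in si-CTL. In si-Rsl24d1 they went from 40.2 to 48.0 TPM up to 648 to 663 TPM, and the part of these cell types was not tested. Ccnd1 fell by 1.98 and 1.94, Ccne1 by 1.27 and 1.33, E2f2 by 1.17 and 1.11, and Cdkn2b rose by 1.71 and 1.14 in the 2 siRNA groups. Rb1 rose by 1.13 in si-CTL, and in si-Rsl24d1 it was lower by 0.25 without passing (adjusted p = 0.023, limma). As deposited, the licensing role did not repeat its fall in full. Of its 9 genes, 4 fell and 1 rose in si-CTL with rescue, with a median of -0.14 against -0.52 in si-CTL without rescue. In si-Rsl24d1 with rescue 44.4% of them fell and 22.2% rose. The median of ratios scaling moved the median of the 48 in si-CTL from -0.28 to -0.15 without rescue. With rescue it moved that median from 0.14 to -0.01. Over the alternatives listed with the processing, Cdt1 in si-CTL ranged from -1.05 to -0.91 without and from -0.96 to -0.77 with rescue. How far the role's fall in si-CTL differed with rescue thus depends on the scaling.

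At day 4 without rescue, 14 of the 48 were higher in si-Rsl24d1 than in si-CTL and 0 were lower by limma, where 24.9% of all genes rose and 6.04% fell, and 3 were lower at an unadjusted p below 0.05. At a mean of at least 4 the share was 27.0% of the 37 genes against 30.5% of all genes. A fit of only the 2 groups compared gave 2 that were higher. The median of all genes was shifted by 0.13 and that of the 48 by 0.14, and after the median of ratios scaling 4 of the 48 were higher and 11 lower, so the direction of the group as a whole depends on the scaling. The 4 genes among the 14 that stayed higher under it were Ccnd2, Ccnd1, E2f3 and Ccne2. Ccnd2 was at 3.07, 3.08 and 3.24 in si-CTL and at 3.85, 4.55 and 4.34 in si-Rsl24d1, with a rise of 1.12 ± 0.16 (0.96 after scaling), and was alone in passing 1.8-fold (1.63% of all genes tested). Ccnd1 was at 3.66, 3.67 and 3.66 against 4.11, 4.44 and 4.34, and rose by 0.64 ± 0.08 (0.48 after scaling).

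E2f3 and Ccne2 rose by 0.46 and 0.33 (0.30 and 0.18 after scaling), and neither gene's groups overlapped. Rb1 rose by 0.33 ± 0.09 as deposited, and was at 0.17 and no longer past the test after scaling. Leaving out si-CTL library 1 or 2, or si-Rsl24d1 library 2 or 3, at day 4 lowered the number past the test from 14 to 8. Leaving out si-Rsl24d1 library 1 raised it to 21, of which 20 were higher and 1 was lower. That library lay nearest to si-CTL for Ccnd2 and Ccnd1. In these groups the summed mesenchyme markers were at 843 to 997 TPM in si-Rsl24d1 and at 407 to 430 TPM in si-CTL, and 8 endoderm markers, led by Col4a1, were at 103 to 143 against 55.4 to 65.4 TPM, and their part in the changes was not tested.

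With rescue at day 4, 1 gene, Tyms, was higher in si-Rsl24d1 (0.30 ± 0.06) and 5 were lower (2.33% and 3.53% of all genes). The 5 were Bub1 (by 0.32), Aurkb (0.23), Ccnb2 (0.18), Rrm2 (0.16) and Ccnb1 (0.14), all small and, apart from Rrm2, mitotic. The shift was wider than these calls: at an unadjusted p below 0.05 by limma, 24 of the 48 were lower and 1 higher. The median change of the 48 was -0.12 against -0.04 over all genes. At a mean of at least 4, 13.5% of the 37 genes fell against 6.07% of all genes. The summed mesenchyme markers were at 648 to 663 TPM in si-Rsl24d1 and at 453 to 491 TPM in si-CTL here, with 5 of 8 that rose, and the endoderm markers at 97.9 to 102 against 67.1 to 77.6 TPM, and their part in the changes was not tested. Without si-CTL library 1, 2 or 3 or si-Rsl24d1 library 3, the number past the test was 3, and 2 without si-Rsl24d1 library 2. Rb1, Rbl2, Cdkn2b and Ccnd2 lay at -0.05, 0.04, -0.10 and 0.10 there.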

How the data were processed

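The authors quantified reads with Salmon and summarised transcripts to genes with tximport. They deposited log2 values (TPM plus 1, log2-transformed) for 54242 symbols, and compared groups themselves with DESeq2 on counts, which were not used here. TPM sum to 1e+06 in every library, so depth is unknown and precision rests on 3 libraries per group, which the labels call independent; p-values measure the spread between them. Per the submitters' processing notes STAR 2.7.8a, Salmon 1.4.0 and the build GRCh38 were used, whereas the methods name a mouse build and other versions. Labels and methods also differ on the kit (poly-A or stranded total RNA), the hours after transfection (48 in the descriptions, 72 in the protocol), the medium and whether LIF was kept with RA.

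The 16447 genes whose log2(TPM + 1) averaged 0.5 or more were tested with limma 3.58.1 in R 4.3.3 (a mean for each of 8 groups, trended empirical Bayes, 16 residual degrees of freedom, two-sided, Benjamini-Hochberg adjusted p below 0.01). The script was tested on simulated data. Fold changes are on the log2(TPM + 1) scale and understate the change of low genes. An exact permutation test of 3 against 3 cannot go below p = 0.1. The members and the lists were chosen with earlier results of these data known. All 48 members could be named; of other lists, at most 3 genes per direction with the largest change past the test and no overlap of the groups. Lpar6 was named after its values were seen. Overlaps were read from the GENCODE vM21 annotation, and promoters from RefSeq.

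Alternatives were 0.1 or 2 added to the TPM, no filter, a minimum mean of 1.5, median of ratios scaling, a fit to the compared groups alone, a term for replicate number (replicate block), an added limit of 1.8-fold, and each library left out.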

Additional observations from a re-analysis of the deposited data

Results flagged for a closer look

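The effect of si-Rsl24d1 differed between day 4 and day 0 in cells without rescue in 30 of the 48 genes, by the interaction term in limma at an adjusted p below 0.01 (Benjamini-Hochberg). It was higher at day 4 in 27 genes, given with the log2 difference of the effects: Ccnd1 (0.82), Ccne1 (0.80), E2f3 (0.77), Ccnd3 (0.71), Mcm10 (0.69), Mcm6 (0.68), Cdk6 (0.67), Mcm2 (0.59), Ccne2 (0.59), Top2a (0.59), Cdt1 (0.58), Cdc6 (0.57), Mcm5 (0.57), Mcm4 (0.54), Bub1 (0.49), Cdk2 (0.48), Tyms (0.48), E2f2 (0.47), Cdkn1b (0.45), Rrm1 (0.40), Pcna (0.39), Cdc25a (0.36), Rbl1 (0.36), Mcm7 (0.32), E2f1 (0.31), Ccna2 (0.28), Aurka (0.19). It was lower in Rb1 (-1.71), Rbl2 (-1.0), Cdkn2b (-0.82). Since the effect at day 0 enters each of these differences, they are not separate from the day 0 results. The calls differ in stability: of 19 alternative fits, E2f2 passed in only 6 and Rbl1 in only 5, while Ccne1 passed in all 19. After the median of ratios scaling 19 genes were higher and 5 lower. The level of Rsl24d1 differed between these siRNA groups at day 0, and at day 4 it did not differ beyond the spread. Lpar6, which overlaps Rb1, had a difference of -1.66 in the same term.

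The effect of si-Rsl24d1 at day 0 differed between cells with and without rescue in 6 genes by the same kind of term. With rescue it was higher for Ccnd3 (0.39), Ccne1 (0.46), Pcna (0.27), Aurkb (0.28) and lower for Cdkn2b (-0.59), Rb1 (-0.71). Aurkb and Pcna passed in only 6 and 4 of the 19 alternative fits.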

How the results depend on the processing

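The number of the 48 genes past the test stayed within 1.5 times for every comparison with 0.1 or 2 added to the TPM, a minimum mean of 1.5 and the replicate block. With an added limit of 1.8-fold it was 4, 1, 1 and 0 for si-Rsl24d1 against si-CTL at day 0 without and with rescue and at day 4 without and with rescue, 12, 6, 10 and 6 for RA in si-CTL and si-Rsl24d1 without rescue and in both with rescue, 1 for the rescue in si-Rsl24d1, and 2 and 0 for the interactions with day and rescue. The median of ratios scaling gave 20 in place of 10 for the siRNA at day 0 with rescue and 15 in place of 7 for the rescue in si-Rsl24d1, and reversed Rrm2 with the siRNA at day 4 without rescue (-0.036) and Aurka with RA in si-CTL with rescue (-0.024). Fitting only the groups compared, with fewer samples, gave 3 for the siRNA at day 0 with rescue, 2 at day 4 without and 2 with rescue, 4 for the rescue in si-Rsl24d1 and 2 for its interaction. With no filter and more genes tested, the siRNA at day 4 without rescue gave 9. With 1 library left out, the ranges were 25 to 29 (siRNA at day 0 without rescue), 7 to 12 (with rescue), 8 to 21 (day 4 without rescue), 2 to 4 (day 4 with rescue), 34 to 36 and 37 to 39 (RA in si-CTL and si-Rsl24d1 without rescue), 39 to 42 and 32 to 35 (both with rescue), 6 to 9 and 0 to 0 (rescue in si-Rsl24d1 and si-CTL), and 26 to 33 and 3 to 5 (interactions with day and rescue). Of 258 calls of single genes, 33 missed the threshold after the scaling, 60 with only the groups compared, 20 with no filter and 14 with the replicate block. Libraries sharing a number did not deviate together, with a mean residual correlation of -0.0173 over 84 pairs, of which 4 were over 0.1. With the replicate block, 30 genes passed for the siRNA at day 0 without rescue in place of 31. The causes of these differences were not tested. Depth is unknown, so that the precision of Cdkn2c and E2f2, the lowest genes, cannot be given beyond the spread of 3 libraries.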
